A study of Mus musculus with 12 samples.

Results

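The 9 genes described here encode the constant regions of mouse immunoglobulin heavy chains (Igha, Ighm, Ighg1, Ighg2b, Ighg2c and Ighg3) and light chains (Igkc, Iglc1 and Iglc2). They were taken from a table of 53715 genes by matching Ensembl identifiers to symbols in GENCODE M21. The match did not use their values, but the list was set with earlier results of these data known. The table comes from mucosal RNA of 12 C57BL/6J mouse libraries, 3 each of ileum control, ileum KO, colon control and colon KO. The control genotype is given in the sample labels as Slc39a8-fl/fl and the KO genotype as Slc39a8-fl/fl:Villin-Cre, so all groups carry the floxed allele of Slc39a8, a metal ion transporter gene, by their labels. The study's methods describe male mice aged 8 weeks and say that floxed mice, wild-type mice and Villin-Cre carriers all served as controls. The Villin promoter drives Cre in intestinal epithelial cells, while the RNA was made from mucosa that also holds other cell types. The study compared the genotypes to learn what loss of Slc39a8 in the epithelium does to the intestine, and the samples allow the tissues to be compared as well.

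The heavy chain constant region sets the class of an antibody. IgM, from Ighm, is the class made first by a B cell, and class switching replaces it with IgA, from Igha, or with an IgG subclass, from the Ighg genes. Each antibody pairs its heavy chains with kappa light chains, from Igkc, or lambda light chains, from the Iglc genes. The intestinal mucosa is known for plasma cells that secrete IgA, which is joined by the J chain (Jchain) and carried across the epithelium by the polymeric immunoglobulin receptor (Pigr).

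In the GRCm38 build the 6 heavy chain genes lie on the minus strand of chromosome 12, Igkc lies on the plus strand of chromosome 6, and Iglc1 and Iglc2 lie on the minus strand of chromosome 16. All 9 are annotated as immunoglobulin constant region genes. Igha (ENSMUSG00000095079.6) spans chr12:113254830-113260236, Ighm (ENSMUSG00000076617.9) spans chr12:113418558-113422730 and Igkc (ENSMUSG00000076609.2) spans chr6:70726435-70726966. The ends of the secreted heavy chain coding sequences are shown because they separate the polymeric classes from IgG. Capitals mark the 54 bases after the shared glycine-lysine codons ggtaaa, which encode the tail used to join IgA and IgM to the J chain and which the 4 IgG genes lack.
Igha, chr12:113258771-113258854, minus strand: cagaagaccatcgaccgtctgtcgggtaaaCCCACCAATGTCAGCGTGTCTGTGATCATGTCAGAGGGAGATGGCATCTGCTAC
Ighm, chr12:113420870-113420953, minus strand: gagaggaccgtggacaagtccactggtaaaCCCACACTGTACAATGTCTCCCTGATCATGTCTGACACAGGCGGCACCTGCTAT
Ighg1, chr12:113328979-113329008, minus strand: gagaagagcctctcccactctcctggtaaa
Ighg2b, chr12:113306392-113306421, minus strand: aagaagaccatctcccggtctccgggtaaa
Ighg2c, chr12:113287392-113287421, minus strand: actaagaccatctcccggtctctgggtaaa
Ighg3, chr12:113359668-113359697, minus strand: cagaagaacctgtctcgctcccctggtaaa
The tails of Igha and Ighm were identical at 39 of 55 aligned columns (70.9%).

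The lambda genes are shown because their likeness bears on how reads were divided among them. The last 60 coding bases of Iglc2 are printed with those of Iglc1 and of Iglc3, a neighbouring gene that is not among the 9, and capitals mark bases that differ from Iglc2.
Iglc2, chr16:19198539-19198598, minus strand: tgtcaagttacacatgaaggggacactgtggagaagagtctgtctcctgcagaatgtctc
Iglc3, chr16:19065368-19065427, minus strand: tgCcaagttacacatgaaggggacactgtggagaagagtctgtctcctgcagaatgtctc
Iglc1, chr16:19061755-19061814, minus strand: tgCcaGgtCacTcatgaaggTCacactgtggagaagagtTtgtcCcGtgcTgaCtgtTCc
Over the whole coding sequence Iglc2 and Iglc3 were 96.2% identical, and Iglc1 and Iglc2 were 73.4% identical. Among the heavy chain genes the closest pair was Ighg2b and Ighg2c, at 85.7% identity, and Igha and Ighm were 47.8% identical. No stretch of 150 bases was shared exactly between any member and another annotated gene. Of stretches of 75 bases, 20 of 2603 in Ighg2b, 6 of 1251 in Ighg2c, 14 of 2438 in Ighg3 and 5 of 537 in Iglc2 were shared with another of these genes. Ighg1 shared 0 of 2517. The division of reads between Iglc2 and Iglc3 and among Ighg2b, Ighg2c and Ighg3 was therefore less certain than for the other members.

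The libraries held 16749138 to 27903083 expected counts, which are estimates of reads per gene, and all values of the 9 members were whole numbers. Levels are given in CPM, counts per 1000000 of the library size scaled by TMM factors. The targeted gene Slc39a8 was at 5.22 to 8.39 CPM in ileum control and 2.62 to 4.35 CPM in ileum KO libraries, and at 20.05 to 20.8 CPM in colon control and 7.35 to 11.5 CPM in colon KO libraries, so each KO library was below its tissue's controls. Ileum control 3 and ileum KO 1 stood apart, since the summed level of 5 smooth muscle genes was 25.2 and 14.7 CPM there against 1460 to 2033 CPM in the other 4 ileal libraries. Ileum KO 2 held 2632 CPM of the colonic marker Car1, against 3.40 to 144 CPM in the other ileal libraries. The tissue differences are given with and without these libraries. In bulk RNA such as this, fewer cells of a type and less RNA per cell cannot be told apart.

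Igha, the heavy chain of IgA, was the heavy chain gene with the most counts in all 12 libraries. In ileum control it was at 288, 1379 and 266 CPM in replicates 1, 2 and 3, and in ileum KO at 298, 961 and 1848 CPM. In colon control it was at 86.8, 129 and 83.8 CPM, and in colon KO at 128, 155 and 426 CPM. The colon control libraries were all below every ileal library, whereas colon KO 3 stood above the 3 lowest ileal libraries.

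Igkc, the kappa light chain, was at 288, 781 and 149 CPM in ileum control and at 155, 755 and 1076 CPM in ileum KO. In the colon it was at 68.6, 87.5 and 67.4 CPM in control and at 122, 117 and 333 CPM in KO, and these colonic groups did not overlap. Ileum control 3 and ileum KO 1 were the lowest ileal libraries for Igkc and stood above every colonic library but colon KO 3.

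Ighm, the heavy chain of IgM, had a different pattern. Its level was 6.32, 8.94 and 25.8 CPM in ileum control and 35.4, 6.33 and 8.20 CPM in ileum KO, so that the 2 ileal libraries with few muscle transcripts held the highest values of the series. In colon control it was at 3.48, 6.38 and 4.75 CPM, and in colon KO at 4.24, 4.61 and 7.06 CPM, which overlapped both each other and the lower ileal libraries.

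The IgG genes were mostly low. Ighg2b was at 1.53, 4.61 and 10.5 CPM in ileum control, 15.8, 5.002 and 8.01 CPM in ileum KO, 1.28, 1.73 and 2.45 CPM in colon control and 0.612, 1.14 and 7.89 CPM in colon KO. Ighg1 lay between 0.330 and 2.39 CPM in all libraries, with 0.512, 0.816 and 0.330 CPM in colon control and 1.13, 0.932 and 0.872 CPM in colon KO. Those colonic groups did not overlap for Ighg1, whose counts there were 7 to 24 per library. Ighg2c was at 0.266, 0.444 and 0.552 CPM in ileum control and 0.775, 0.156 and 0.805 CPM in ileum KO. In the colon it was at 0.256, 0.624 and 1.60 CPM in control and at 0, 0.466 and 10.5 CPM in KO, so the KO mean of 3.67 CPM rested on 1 library, colon KO 3. Ighg3 had 0 to 25 counts per library and failed the filter on low counts, so it was not tested. It had 18 counts in ileum control 3 and 25 in ileum KO 1, and 0 to 4 counts in the other 10 libraries.

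The lambda genes varied apart from Igkc. Iglc1 was at 59.6, 51.9 and 3.61 CPM in ileum control and at 2.74, 104 and 71.9 CPM in ileum KO, and the 2 ileal libraries with the highest Ighm had the lowest Iglc1 of the series. In the colon Iglc1 was at 19.9, 4.27 and 9.18 CPM in control and at 5.04, 7.20 and 18.4 CPM in KO. Iglc2 ranged from 5.60 to 14.97 CPM in the ileum and from 2.46 to 11.1 CPM in the colon, and its groups overlapped.

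**Figure D1:**
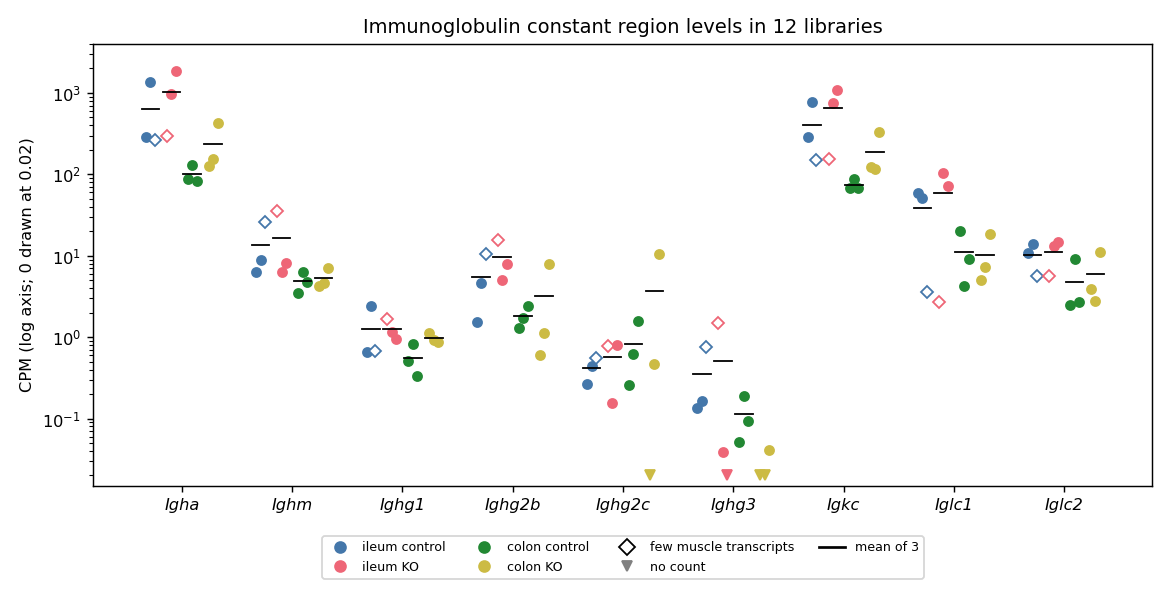
Level of the 9 constant region genes in TMM-scaled CPM on a log axis, with 1 point for each of 12 libraries, colours for the 4 groups, a line at the mean of 3 and open diamonds for ileum control 3 and ileum KO 1. Igha and Igkc lie far above the IgG genes, colon control is below every ileal library for Igha, and the open diamonds are highest for Ighm and lowest for Iglc1.

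To compare levels between genes, CPM was divided by the length of the secreted heavy chain transcript or the light chain transcript in kilobases. On this scale Igkc had the highest mean in all 4 groups, from 140 ± 21.2 CPM per kb in colon control to 1244 ± 879 in ileum KO (SD, n = 3), and Igha came next, at 90.7 ± 22.9 and 942 ± 707 in the same groups. The ranges of Igkc and Igha overlapped in every group but colon control, where Igkc was at 127 to 164 and Igha at 76.2 to 117 CPM per kb. Iglc1, Iglc2, Ighm and Ighg2b followed in that order by mean in both ileal groups and in colon control, and neighbours in this order overlapped in both ileal groups. In the colon, the lowest Iglc2 library was above the highest Ighm library in each genotype, at 5.37 against 4.27 CPM per kb in control and 5.99 against 4.73 CPM per kb in KO. Ighg1, Ighg2c and Ighg3 came last in ileal libraries and in colon control, while the mean of Ighg2c in colon KO, 3.30 ± 5.36 CPM per kb, was carried by colon KO 3.

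Shares were computed within each library, as the count of a member over the summed counts of the heavy or light chain members, and do not depend on library scaling. Intervals are 95% Wilson intervals and cover counting error only. Igha made up 97.0%, 98.8% and 87.4% of heavy chain counts in ileum control and 84.4%, 98.7% and 99.04% in ileum KO. In the colon its share was 94.0%, 93.0% and 90.1% in control and 95.5%, 95.6% and 94.2% in KO. The 4 ileal libraries with muscle transcripts were all above the 6 colonic libraries, and the other 2 ileal libraries were below them. The colonic groups did not overlap, but the nearest libraries, colon control 1 (94.0%, interval 92.8 to 95.0) and colon KO 3 (94.2%, interval 93.7 to 94.6), could not be separated at this depth.

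Ighm outnumbered the summed IgG counts in 9 of 12 libraries, the exceptions being ileum KO 2 (162 against 163 counts), ileum KO 3 (173 against 206) and colon KO 3 (170 against 466). The share of Ighm was 8.48% in ileum control 3 (interval 7.85 to 9.14) and 10.01% in ileum KO 1 (interval 9.27 to 10.8), against 0.439% to 2.13% in the other 4 ileal libraries. In the colon the share of Ighm was 3.77%, 4.61% and 5.11% in control and 3.16%, 2.84% and 1.56% in KO, so that each KO library was below each control. The nearest of them, colon control 1 (interval 2.98 to 4.75) and colon KO 1 (interval 2.58 to 3.87), had overlapping intervals. The level of Ighm did not fall, with means of 4.87 CPM in colon control and 5.30 CPM in colon KO. Igha and Ighm are parts of the same heavy chain total, so their shares are not separate observations. In CPM, 12.8% of all genes had colonic groups that did not overlap, and no such rate was computed for shares.

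IgG genes together made up 0.523% to 0.875% of heavy chain counts in the 4 ileal libraries with muscle transcripts, 4.10% and 5.59% in ileum control 3 and ileum KO 1, and 1.30% to 4.81% in the colon. In the ileum the IgG counts were mainly Ighg2b, at 59.0% to 84.0% of the IgG total. Ighg2b also led in colon control, at 61.0%, 51.4% and 54.7%, and in colon KO 2, at 44.9%. In colon KO 3 Ighg2c was the leading IgG, with 54.5% of 466 IgG counts, and its share of heavy chain counts was 2.33% (interval 2.06 to 2.63). In colon control 3 Ighg2c made up 35.8% of 95 IgG counts. In colon KO 1 there were 0 Ighg2c counts among 2846 heavy chain counts, which allows a share of up to 0.105% by the limit of 3 counts for a count of 0, and 0.135% by the Wilson interval, and Ighg1 was 64.9% of only 37 IgG counts.

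**Figure D2:**
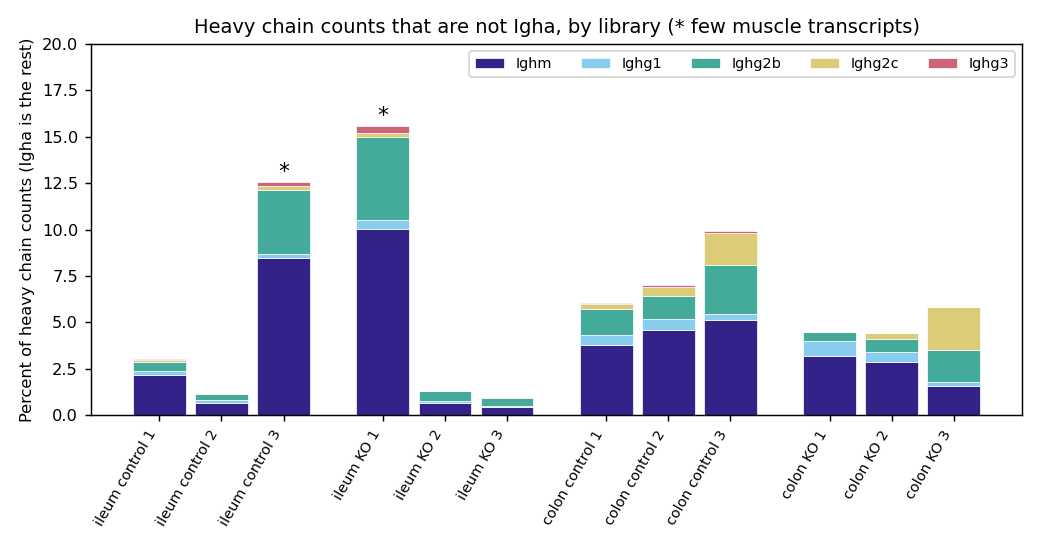
Percent of heavy chain counts in each of 12 libraries that are not Igha, stacked as Ighm, Ighg1, Ighg2b, Ighg2c and Ighg3, with a star on the 2 ileal libraries with few muscle transcripts. The starred bars are the highest, at 12.6% and 15.6% in all, the other ileal bars are the lowest, and Ighg2c is largest in colon KO 3.

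Among light chain counts Igkc made up 80.4%, 92.2% and 94.2% in ileum control and 94.9%, 86.6% and 92.5% in ileum KO. In the colon its share was 75.4%, 86.7% and 85.0% in control and 93.1%, 92.1% and 91.9% in KO. The colonic groups did not overlap, and here the nearest libraries had separate intervals, 85.2 to 88.1 in colon control 2 and 91.3 to 92.4 in colon KO 3. With 3 libraries against 3, an exact permutation test within 1 tissue cannot give a p below 0.1, so no test was made there.

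The makeup of the lambda counts also differed between libraries of 1 group. Iglc1 was 21.9% of light chain counts in colon control 1 but 4.23% in colon control 2. Iglc2 was 9.03% in colon control 2 and 1.29% to 3.57% in the other 11 libraries. Colon control 2 also held 628 counts of Iglc3, 69.2% of the Iglc1, Iglc2 and Iglc3 counts together, whereas the share of Iglc3 was 1.51% to 23.5% in the other libraries. Since Iglc2 and Iglc3 are nearly identical, how much of the Iglc2 count in colon control 2 came from Iglc3 reads was not tested. With Iglc3 counts added to those of Iglc2, which was tried only after seeing the data, the mean share of Igkc over both tissues was 9.46 points higher in KO than in control libraries (exact permutation p = 0.035, adjusted 0.21). The difference of KO minus control for Iglc2 was then -4.96 points, against -1.47 without Iglc3, and that of colon minus ileum 5.0 against 1.48 points (exact permutation, adjusted p = 0.525 for both).

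**Figure D3:**
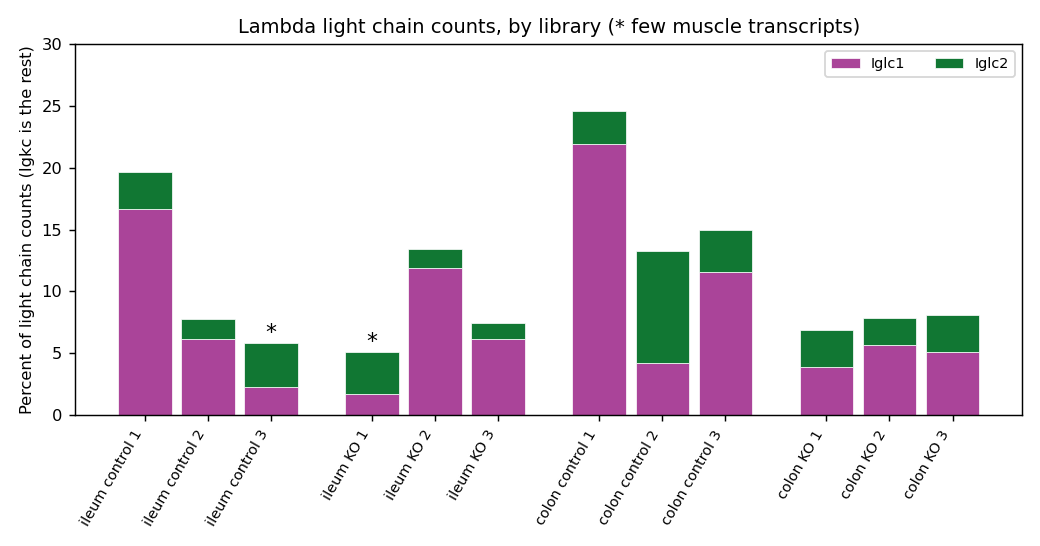
Percent of light chain counts that are Iglc1 or Iglc2 in each of 12 libraries, with Igkc as the rest and a star on the 2 ileal libraries with few muscle transcripts. The 3 colon control bars reach 13.3% to 24.6% and the 3 colon KO bars 6.87% to 8.13%.

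Over both tissues, the mean share of Igkc was 85.7% in control and 91.9% in KO libraries, a difference of 6.20 percentage points with an exact two-sided permutation p of 0.09 and 0.54 after adjustment over 18 share tests. The mean share of Igha was 93.4% in control and 94.6% in KO libraries (exact permutation p = 0.575, adjusted 0.92). Between tissues, the mean share of Ighg1 was 0.211% of heavy chain counts in the ileum and 0.518% in the colon (exact permutation p = 0.025, adjusted 0.27). That of Ighg2c was 0.0970% in the ileum and 0.845% in the colon (exact permutation p = 0.03, adjusted 0.27). None of the 18 tests passed an adjusted p of 0.1, and the smallest p that 400 arrangements allow is 0.005. Without the 2 ileal libraries with few muscle transcripts, 3 tissue differences and 1 genotype difference passed at an adjusted p of 0.09 by the same exact permutation test. The difference of colon minus ileum was then -4.67 points for Igha, 2.54 points for Ighm and 0.376 points for Ighg1. The difference of KO minus control was -0.0609 points for Ighg3, a gene with 0 to 4 counts in these 10 libraries. By this exact permutation test the unadjusted p was 0.01 for Igha and Ighm, 0.02 for Ighg1 and 0.0167 for Ighg3. Fewer than 400 arrangements exist for these 10 libraries, so the smallest p allowed is above 0.005. The 2 libraries left out held the lowest shares of Igha and the highest of Ighm in the series.

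For the levels, the genotypes were compared with edgeR's quasi-likelihood test over all genes. Over both tissues, 0 of the 8 members tested passed an adjusted p of 0.1, where the share of all 16558 genes called was 0%. The targeted gene Slc39a8 had the lowest p of all and was not called either (log2 fold change -1.13, SE 0.17, adjusted p = 0.382 by edgeR). A missing call here is therefore no sign that a gene was unchanged. All 8 estimates of the members were higher in KO mice, with a median log2 fold change of 0.60 beside 0.00 over all genes tested. They are not independent, and those of Ighm, Ighg2c, Iglc1 and Iglc2 changed sign when single libraries were left out. Among the members the smallest unadjusted p-values were those of Igkc, at a log2 fold change of 1.03 (SE 0.48, unadjusted p = 0.0543, adjusted p = 0.998 by edgeR), and Igha, at 0.96 (SE 0.51, unadjusted p = 0.0819, adjusted p = 0.998 by edgeR). Ighg2c had an estimate of 1.39 (SE 0.99), which rested on colon KO 3. At an unadjusted p under 0.05 edgeR gave 641 genes, or 3.87% of those tested, and none of the members. DESeq2 called 4 genes over both tissues, or 0.0143% of those tested, and limma-voom 1, or 0.00604%, and neither called a member. DESeq2 left Ighg3 without a p here.

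In the ileum alone, where 0% of genes were called, the log2 fold changes of the 8 members lay between 0.02 for Ighg1 and 0.78 for Ighg2b, with standard errors of 0.53 to 1.47. None of the 8 had groups that did not overlap in CPM, which 3.7% of all genes had, 2.13% with KO higher and 1.57% with KO lower. In the colon alone, again with 0% of genes called, Igha had a log2 fold change of 1.24 (SE 0.75) and Igkc of 1.35 (SE 0.71), each with an adjusted p of 1 by edgeR. Of the 8 members, 2 (Ighg1 and Igkc) had colon KO libraries all above the controls, against 6.98% of all genes with that direction, and 0 had them all below, against 5.85%. The genotype effect in the colon minus that in the ileum was 0.56 for Igha (SE 1.04) and 0.65 for Igkc (SE 0.98) on the log2 scale, and 0% of genes were called. DESeq2 called 2 genes in the ileum (0.00715%), 0 in the colon (0%) and 1 for the difference (0.00357%), and no member among them. At an unadjusted p under 0.05 edgeR gave 252, 385 and 169 genes in these comparisons, with no member. Igkc kept a positive estimate without the 2 ileal libraries with few muscle transcripts, where it was 1.13 over both tissues (SE 0.32, adjusted p = 0.339 by edgeR). The unadjusted p by edgeR was then 0.00419 for Igkc and 0.0245 for Igha, and above 0.05 for the other members tested. In that fit 9.8% of all genes had an unadjusted p under 0.05.

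Between tissues, most estimates of the members were lower in the colon. In control mice, 2 of 8 members fell, against 19.6% of all genes that were lower and 35.9% called in either direction, and 0 rose, against 16.2%. Igha was lower by a log2 fold change of -2.69 (SE 0.78, adjusted p = 0.0245 by edgeR), from 644 ± 637 CPM in the ileum to 99.8 ± 25.2 CPM in the colon (SD, n = 3). Igkc was lower by -2.45 (SE 0.73, adjusted p = 0.0273 by edgeR), from 406 ± 332 to 74.5 ± 11.3 CPM. Both had groups that did not overlap, as did 20.4% of all genes in that direction, 20.3% in the other and 40.7% in either. Of the other 6 members, 5 had negative estimates that missed the threshold, between -1.08 for Iglc2 and -1.78 for Iglc1, and Ighg2c had a positive one of 0.94 (SE 1.43). The median over the 8 was -1.55, beside 0.02 over all genes. DESeq2, which called 31.3% of genes here, called Igha, Igkc and also Ighm, at -1.49 (adjusted p = 0.0588 by DESeq2). Without ileum control 2, the library with 1379 CPM of Igha, no member was called, and the log2 fold change of Igha was then -1.47 (adjusted p = 0.13 by edgeR). Without both ileal libraries with few muscle transcripts, 42% of all genes were called, 22% lower and 19.9% higher. Of the members 5 were then called, which were Igha (-3.08), Ighg1 (-1.49), Igkc (-2.86), Iglc1 (-2.34) and Iglc2 (-1.40).

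In KO mice, 3 of 8 members fell, where 20% of all genes were lower and 37.1% were called in either direction, and 0 rose, against 17.1%. The log2 fold change was -2.13 for Igha (SE 0.77, adjusted p = 0.0574 by edgeR), -1.80 for Igkc (SE 0.71, adjusted p = 0.0812) and -1.64 for Ighm (SE 0.67, adjusted p = 0.0873). The median over the 8 members was -1.60, beside 0.01 over all genes. None of the members had groups that did not overlap in CPM, since colon KO 3 stood above ileum KO 1 for Igha and Igkc, and 50.4% of all genes did, 25.5% with the colon higher and 24.9% with it lower. The calls in KO mice depended on single libraries. No member was called without colon KO 2, only Ighg2c without colon KO 1, and Ighm and Ighg3 without ileum KO 3. Without ileum KO 2, the library with the colonic marker Car1, Igha, Ighm and Ighg3 were called and Igkc was not, at -1.70 (adjusted p = 0.153 by edgeR). Ighm rested on ileum KO 1, without which and without ileum control 3 its estimate was -0.44 (adjusted p = 0.274 by edgeR), while Igha and Igkc were then at -2.56 and -2.26, and Iglc1 at -3.09 was called as well. Where DESeq2 called 31.5% of genes, it called Igha, Ighm, Igkc and also Ighg3, at a log2 fold change of -4.92 (adjusted p = 0.0404 by DESeq2), a gene with 0, 0 and 1 counts in colon KO and 25, 1 and 0 counts in ileum KO. Where limma-voom called 38% of genes, it called Igha and Ighg2b (adjusted p = 0.0875 by limma-voom), but not Igkc (adjusted p = 0.129) or Ighm (adjusted p = 0.25).

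**Figure D4:**
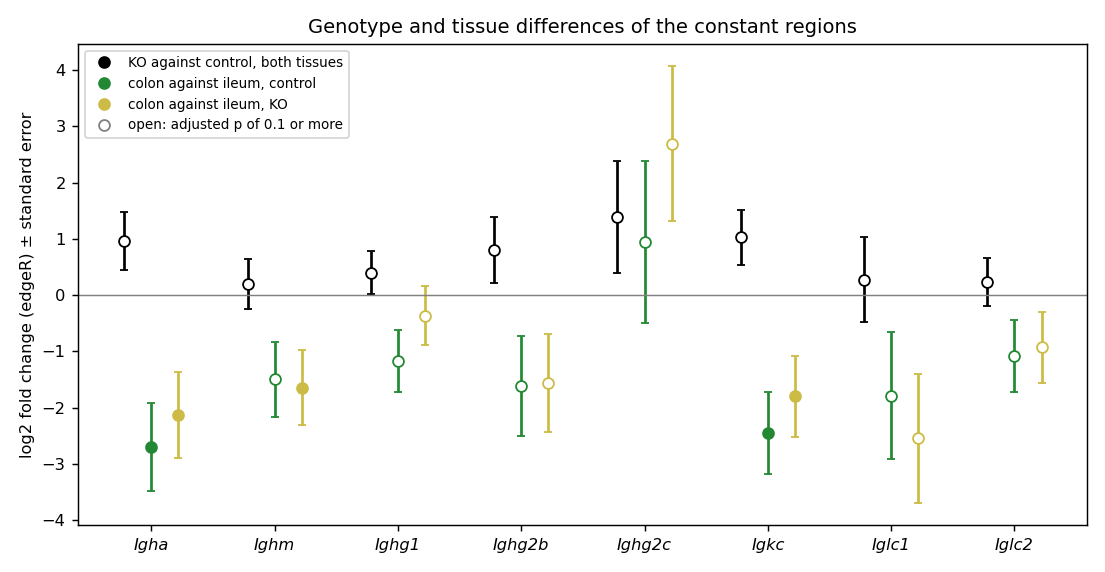
Log2 fold change with its standard error from edgeR for the 8 members tested, for KO against control over both tissues (black), colon against ileum in control mice (green) and colon against ileum in KO mice (yellow), with filled points for an adjusted p under 0.1. No black point is filled, and the filled points are Igha and Igkc in both tissue comparisons and Ighm in KO mice.

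Genes that act with the constant regions were counted in fixed lists. In the genotype comparisons no gene of any of the lists was called. Of all genes tested, 19.6% were lower in the colon of control mice and 20% in that of KO mice. Of 4 genes for secretion and transport of IgA and IgM (Jchain, Pigr, Mzb1 and Fcamr), all tested, 2 were lower in the colon in both genotypes. Pigr, the epithelial receptor for polymeric immunoglobulin, had a log2 fold change of -1.20 in control (adjusted p = 0.0204 by edgeR) and -1.08 in KO mice (adjusted p = 0.0322), and Mzb1, a chaperone of antibody-secreting cells, -2.83 and -1.78. Jchain did not pass, at -1.15 (adjusted p = 0.257 by edgeR) in control and -1.31 (adjusted p = 0.197) in KO mice. The median of the list was -1.17 in control and -1.29 in KO mice.

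Of 11 plasma cell genes, all tested, 8 were lower in the colon of control mice and 7 in that of KO mice, against 19.6% and 20% of all genes, with medians of -1.69 and -1.36. Creld2, an endoplasmic reticulum protein, had -1.98 and -1.85, and Prdm1, the transcription factor of plasma cell differentiation, had -1.84 and -2.12, though these genes and Xbp1 are also expressed by epithelium. Sdc1, another of the 11, was not called and did not fall. It was at 226 to 275 CPM in ileum control and 260 to 270 CPM in colon control libraries. In KO mice it was at 280 to 295 CPM in the ileum and 281 to 333 CPM in the colon. The epithelial markers were also lower in the colon, 5 of 5 in each genotype, with summed levels of 15578 to 20273 CPM in ileal and 7794 to 9024 CPM in colonic libraries. Of 12 B cell genes 9 were tested, and 2 were lower in the colon of control mice (Cd79b and Fcrla) and 3 in that of KO mice (Cd79a, Cd79b and Fcrla), and the count in control mice was near the 19.6% over all genes. The summed level of the 12 was 66.7 and 80.4 CPM in ileum control 3 and ileum KO 1, 5.66 to 10.4 CPM in the other 4 ileal and 2.59 to 8.68 CPM in the colonic libraries. Of the 6 T cell markers 6 were lower in the colon of control mice and 5 in that of KO mice, with summed levels of 20.5 to 61.6 CPM in ileal and 7.92 to 20.5 CPM in colonic libraries. The part of these cell types in the tissue differences of the members was not tested.

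Of 13 genes for class switching and its signals 8 were tested, and Apex1, a DNA repair enzyme, and Tnfrsf13b, the receptor TACI of B and plasma cells, were lower in the colon of both genotypes, a count near the 19.6% and 20% of all genes. In KO mice Tgfbr2, a receptor subunit for TGF-beta, was higher in the colon, at 0.58 (adjusted p = 0.0126 by edgeR). Of 7 Fc receptor genes 6 were tested, and 1 (Fcgr4, a receptor for IgG) was lower in the colon of control mice and none in that of KO mice. In the list of surrogate and other lambda-chain genes, neither Vpreb3 nor Igll1 passed the filter. Of the 4 other constant region genes of these loci, Ighd and Iglc3 were tested and not called. Ighd, the heavy chain of IgD on naive B cells, was at 6.20 and 9.24 CPM in ileum control 3 and ileum KO 1 and at 0.195 to 0.758 CPM in the other 10 libraries. Ighe had 2 counts in colon control 3 and 0 elsewhere, and Iglc4 had 0 in every library.

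The members differed in which genes they moved with. After subtraction of each tissue mean from log2 CPM, over 12 libraries, Igha and Igkc had a Pearson correlation of 0.97, and Ighm had -0.31 with Igha and -0.88 with Iglc1. Without the 2 ileal libraries with few muscle transcripts, the correlation of Ighm was 0.70 with Igha and -0.20 with Iglc1 over 10 libraries, while that of Igha with Igkc was 0.97. These are descriptions over libraries that share their scaling, and the sign between Ighm and Igha changed when the 2 libraries were left out.

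Outside the immunoglobulin loci, the genes most like Igha over the 12 libraries were Ckap4 (0.967), Cyth4 (0.958) and Tubb4b (0.949), and those most like Igkc were Cyth4 (0.962), Spn (0.948) and Abcg3 (0.939). For Ighm they were Cr2 (0.969), the complement receptor of follicular B cells, Pcnx (0.963) and Sdad1 (0.955), and these fell to 0.845, 0.693 and 0.748 over 10 libraries without the 2 ileal ones. For Ighg2b they included Ets1 (0.909) and Hvcn1 (0.909), and for Ighg1 they were Naa80 (0.925), Ythdf1 (0.863) and Bcat2 (0.857).

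**Figure D5:**
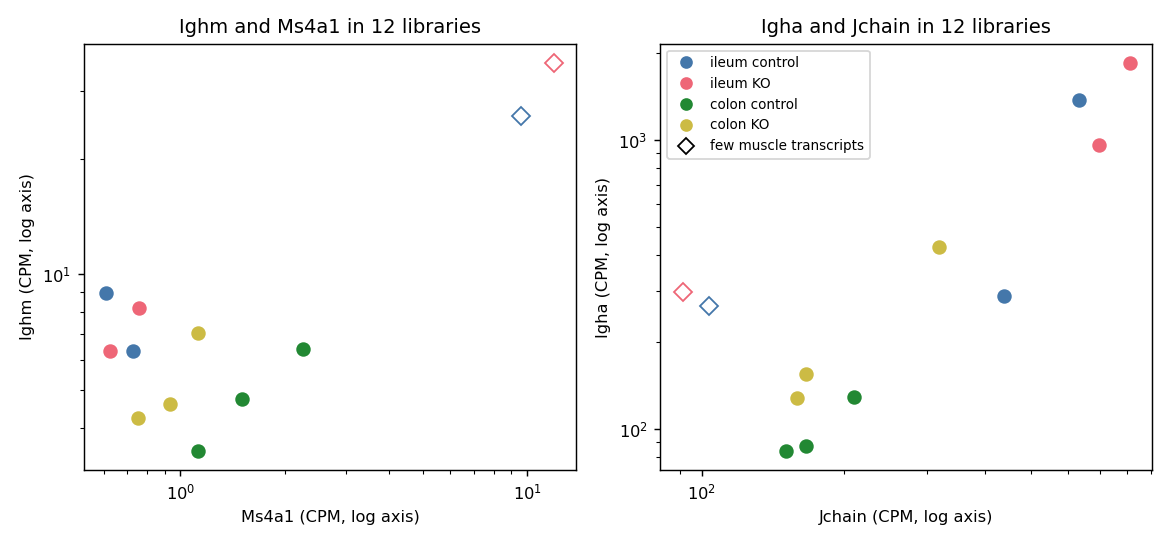
Ighm against Ms4a1, the B cell gene for CD20, and Igha against Jchain, each in TMM-scaled CPM on log axes in 12 libraries, with open diamonds for ileum control 3 and ileum KO 1. The diamonds lie at the upper right for Ighm and Ms4a1, and at the lowest Jchain values in the panel of Igha.

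The level of Igha relative to Jchain was examined after the values were seen. Igha CPM per Jchain CPM was 0.520, 0.611 and 0.556 in colon control and 0.803, 0.931 and 1.33 in colon KO, so these groups did not overlap. In the ileum it was 0.658, 2.18 and 2.56 in control and 3.27, 1.38 and 2.28 in KO, which overlapped, and the 2 libraries with few muscle transcripts had the highest ratios of the series. The level of Jchain itself was 104 and 91.1 CPM there, while the remaining 4 ileal libraries held 437 to 811 CPM.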

How the data were processed

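Poly(A) RNA of ileal or colonic mucosa, primed with oligo-dT, was sequenced in 12 libraries, and each was placed in its tissue and genotype group by its labels. Whether an ileal and a colonic library share a mouse is not stated in the labels, and tests over both tissues take them as independent. In the fits, p-values weigh a difference against the spread between libraries that the model leaves, estimated over all libraries fitted. In the share tests they set a difference against rearranged labels.

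The authors deposited 1 table of expected counts, which are estimated reads per gene and are not normalized. The sources name STAR and mm10, and a reporting form names uniquely mapped reads and FeatureCounts, while for expected counts a tool was not given in the sources used here. Of 53807 lines, 92 are spike-ins with a total count of 0 and were left out. Depth was 16749138 to 27903083 expected counts, and the number of counts of a member limits the precision of its share.

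Counts were rounded. edgeR 4.0.16 in R 4.3.3 kept 16558 genes with filterByExpr, scaled them by TMM factors and tested them with glmQLFit and glmQLFTest, with Benjamini-Hochberg adjustment over all genes kept and a threshold of 0.1, as in the study. Genotype over both tissues had tissue as a term, and the other comparisons came from a model of the 4 groups. log2 CPM used a prior count of 2. Fold changes of members with no counts in a library depend on the prior count of the fit. Shares were tested by two-sided exact permutation within tissue or genotype, adjusted over 18 tests (SciPy 1.17.1). There were 400 arrangements, and fewer where libraries were left out. Sequences, coordinates and lengths came from GENCODE M21 (GRCm38). Scripts were tested on simulated counts with known changes, called at an adjusted p under 0.1. edgeR recovered 58% of 2-fold changes for genotype over both tissues and 29% for tissue in control mice. It recovered 90% and 76% of 4-fold changes. Of the calls, 8.07% and 7.08% were false by edgeR, against 28.8% and 24.7% by DESeq2. Apart from the planted changes, the simulation gave each gene the same mean level in all libraries, with dispersions fitted by edgeR. It held no tissue difference and no separate libraries with few muscle transcripts, so these rates may not hold for the real data. Figures used matplotlib 3.10.9.

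The members and all lists were chosen with earlier results of these data known. Named were the 9 members, the other constant region genes, the listed genes past the threshold with Jchain, Pigr and Ighd, and the 3 genes with the highest correlation to each of 5 members. Some genes that this rule names are not reported here. Alternatives were DESeq2 1.42.0, limma-voom (limma 3.58.1), other scaling, filters, thresholds and models, each library left out in turn, and the replicate number as a block. Robust dispersions, DESeq2 without 2 ileal libraries, shares per kilobase of transcript and Iglc3 added to Iglc2 were chosen after seeing the data. Of the marker lists not described in the text, no gene was called for genotype. Of the marker lists between tissues, the 3 ileum markers were lower in the colon in both genotypes and the 3 colon markers higher in control mice, with 1 of 3 higher in KO mice. Of 5 smooth muscle genes and 2 erythroid genes none was called between tissues, and of 3 macrophage genes 1 was lower in the colon in each genotype.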

Additional observations from a re-analysis of the deposited data

How the results depend on the processing

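No alternative called a member for genotype or for the difference between tissues, in edgeR, DESeq2 or limma-voom. For colon against ileum in control mice, 5 members were called without the 2 ileal libraries with few muscle transcripts, beside 42% of all genes. By DESeq2 without them 4 members were called, beside 35.3% of all genes. When each library was left out in turn, 0 to 4 members were called, beside 27.3% to 36% of all genes. In KO mice 1 member was called with upper-quartile scaling (38.1% of all genes) and 1 with library size only (39.5%). Without the filter 5 were called (19.8% of all genes), and 0 at a threshold of 0.05 (28.7%). With each library left out in turn, 0 to 4 were called, beside 26% to 31.8% of all genes. With the replicate number as a block (replicate block) 2 members were called in control mice and 2 in KO mice, where Ighg2b (-2.29) was called and Igkc (-1.63) and Ighm (-1.62) were not. It changed no other count of members called, and the genes called in all were 5333 in control mice and 5558 in KO mice, against 5940 and 6149 without it. The numbers were not taken as pairs, since the labels do not tie an ileal and a colonic library to the same mouse. After subtraction of group means, same-numbered ileal and colonic libraries had correlations of -0.053, 0.165 and -0.080 in control mice. In KO mice these were 0.19, 0.051 and 0.25. Between genotypes, where the mice differ, the correlations were -0.69 to 0.40. These values cannot decide whether the tissues share mice.

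By limma-voom the log2 fold change for genotype over both tissues changed sign for Ighm (-0.015) and Ighg2c (-0.16), as did that of Ighg2c in the colon (-0.32) and its difference between tissues (-0.35). For Ighg1 in the ileum it was -0.029 with upper-quartile scaling, -0.55 without the 2 ileal libraries and -0.53 by DESeq2 without them. With each single library removed, the log2 fold change for genotype over both tissues lay between -0.34 and 0.58 for Ighm, -0.52 and 1.66 for Ighg2c, -0.079 and 0.63 for Iglc1, and -0.11 and 0.60 for Iglc2. In the ileum it lay between -0.032 and 1.91 for Igha and -0.29 and 0.90 for Ighg1, and in the colon between -1.82 and 3.06 for Ighg2c. The difference between tissues lay between -0.66 and 1.27 for Igha, -0.079 and 1.19 for Ighg1, -2.22 and 2.67 for Ighg2c and -0.25 and 1.19 for Igkc, and the tissue difference in KO mice between -1.30 and 3.24 for Ighg2c.

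On log2 shares the genotype difference of Ighg1 was -0.31, and the tissue differences of Ighm and Ighg2b were 0.87 and 0.36, each with another sign than in percentage points. Ighg2c and Ighg3 have 0 counts in some libraries and gave no log2 share. Without the 2 ileal libraries the genotype difference of Ighg1 was -0.0372 points and that of Ighg3 -0.0609. The tissue differences were then -4.67 for Igha, 2.54 for Ighm, 0.376 for Ighg1, 0.914 for Ighg2b, 0.0355 for Ighg3 and -1.498 for Iglc1. When each library was left out in turn, the genotype difference in points lay between -0.549 and 3.61 for Igha, -2.59 and 0.170 for Ighm, -0.0536 and 0.109 for Ighg1, -0.872 and 0.298 for Ighg2b, -0.340 and 0.251 for Ighg2c and -0.0981 and 0.00916 for Ighg3. The tissue difference lay between -2.92 and 0.739 for Igha, -1.03 and 1.36 for Ighm, -0.601 and 0.411 for Ighg2b, 0.383 and 0.966 for Ighg2c, where it passed without colon KO 1, and -1.08 and 3.33 for Iglc1. The causes were not tested.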
